A study of Mus musculus with 44 samples.

Results

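The difference in gene expression between gut endoderm of extraembryonic and of embryonic origin was compared across a 4-day interval of mouse development. For each gene, the origin difference at E13.5 (the mean of exColon and exSI minus the mean of emColon and emSI) was taken, and the origin difference at E9.5 (the mean of exHindgut and exMidgut minus the mean of emHindgut and emMidgut) was subtracted from it. The quantity, called the change of the origin difference here, was computed over the 28 of 44 libraries that come from these 8 groups, which were chosen by their titles. A value above 0 means that the extraembryonic cells gained expression relative to the embryonic cells between both stages, and a value below 0 means that they lost it. All differences are on the log2(TPM + 1) scale, where TPM is an abundance per unit of transcript length scaled to a fixed total in each library, and understate the change of genes with low values.

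Most of the gut endoderm descends from the epiblast, but a minority of its cells descends from the visceral endoderm, an extraembryonic lineage that first nourishes the embryo and then becomes intercalated into the gut tube. p53, encoded by Trp53, is a transcription factor that is stabilised under stress and switches on genes for cell cycle arrest (Cdkn1a), apoptosis (Bax, Tnfrsf10b), DNA repair (Xpc) and its own degradation (Mdm2). Over the same interval the gut tube is patterned along its length by Cdx and Hox factors and its epithelium begins to express genes of absorptive and endocrine cells.

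The embryos were made by aggregating an mCherry+ morula (CD1/G4), which gave the extraembryonic cells, with GFP+ mouse embryonic stem cells (G4), which gave the embryonic cells. The 16 E9.5 libraries (4 each of exMidgut, exHindgut, emMidgut and emHindgut) are wild type, and each pools the gut parts of 4 embryos. The 12 E13.5 libraries (3 each of exColon, exSI, emColon and emSI, where SI is the small intestine) come from single embryos, and the ex cells alone carry a disruption of Trp53, made by electroporating zygotes with Cas9 and guide RNAs, while the em cells are labelled WT. All cells were sorted as EPCAM+ epithelium, the ex cells as mCherry+. Per the study's methods, the em cells of E9.5 carried both colours, with a low mCherry signal (their labels read dual_low), and those of E13.5 were GFP+. Per the same methods, the em cells are male and the ex cells can be of either sex. Since only the E13.5 ex libraries are Trp53 KO, the effects of stage and of genotype cannot be told apart in the change. The same holds for these differences in sorting and pooling and for sex. The embryonic cells trace to 1 stem cell line, and the labels do not say which libraries share embryos, so p-values measure the spread between these libraries, which may be partly technical.

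The libraries held 3.53 to 12.0 gigabases of aligned sequence, and 13222 to 13596 genes exceeded 1 TPM at E9.5 against 10382 to 12439 at E13.5. These numbered 11651, 10382 and 11330 in emColon and 12115, 11345 and 12089 in exColon. In emSI they numbered 12439, 11966 and 11899, and in exSI 12170, 11415 and 11688. The part of lower detection in genes listed at or near 0 in emColon was not tested. Replicates were closest in emHindgut, with a median within-group SD of 0.307 on the log2 scale, and widest in emColon, with 0.643. Trp53 itself was still transcribed in the ex cells at E13.5, with a lowest, median and highest value of 33.4, 120 and 167 TPM over 6 libraries, against 151, 186 and 245 TPM in the em cells. The origin difference of Trp53 at E13.5 was -1.11 (limma adjusted p = 0.0090) and its change was -0.92 ± 0.34 (SE; limma adjusted p = 0.25). The lowest values were those of exSI replicate 1 (33.4 TPM) and exColon replicate 1 (42.5 TPM), and transcript remaining after a Cas9 cut does not show whether protein is made. The mCherry transcript lay between 2624 and 8667 TPM in the 14 ex libraries and at or below 6.61 TPM in the 14 em libraries. EGFP lay between 440.1 and 880.2 TPM in the em and at or below 5.67 TPM in the ex libraries, and Epcam lay between 331 and 1656 TPM in all 28. Xist was at 22.3 to 113 TPM in the 8 ex libraries at E9.5, at 0 to 1.37 TPM in the 6 at E13.5 and at or below 0.252 TPM in the em libraries. The sex of the ex cells may thus differ between the stages, and its part in the change, also of X-linked genes, was not tested.

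The change of the origin difference was called for 99 of 14038 genes (0.705%) at an adjusted p below 0.05 in limma, 60 above 0 (0.427%) and 39 below 0 (0.278%). At an unadjusted p below 0.05 there were 1759 genes. The median change over all genes tested was 0.14, and it fell to 0.04 under median-ratio rescaling and to -0.003 under quantile normalization of the same libraries. The split of calls was 45 above against 52 below 0 under the first and 36 against 47 under the second, so the excess of rises over falls depended on the scaling and each change is best read against the median of all genes. Leaving out 1 library gave 75 to 203 calls, the highest counts without emColon replicate 1 (203), emColon replicate 3 (179) and exColon replicate 2 (149).

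**Figure D1:**
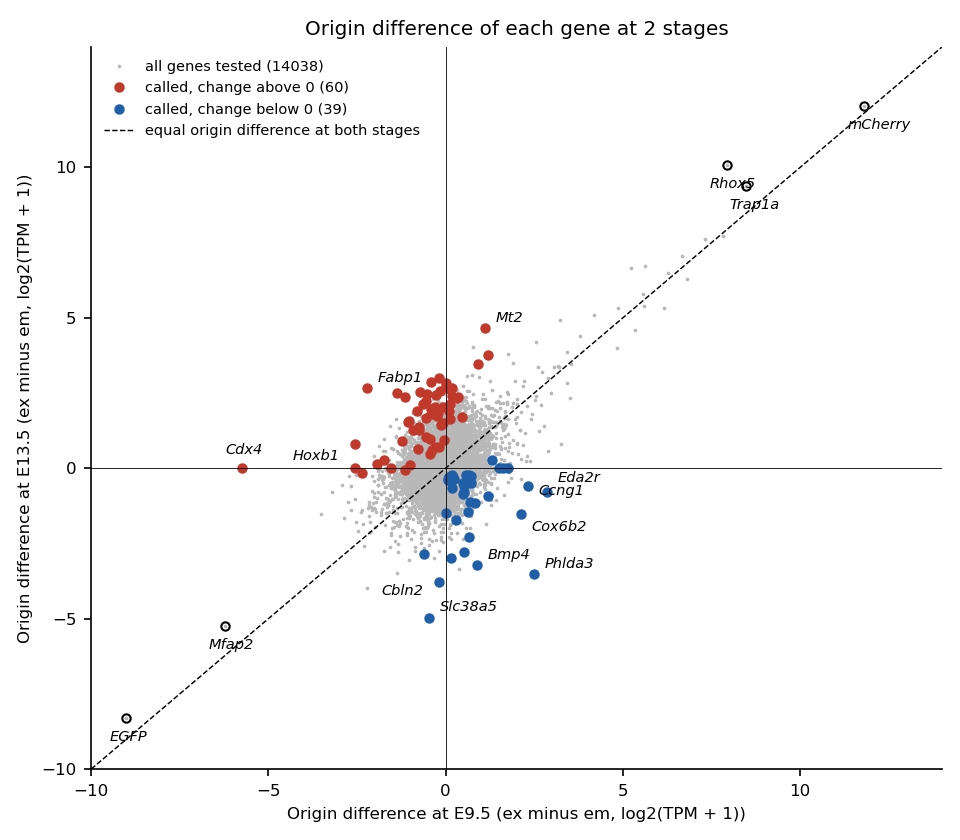
Origin difference of each tested gene (ex minus em, log2(TPM + 1)) at E9.5 on the horizontal axis and at E13.5 on the vertical axis. Grey points are the 14038 genes tested, red and blue points the 60 and 39 genes called for a change above and below 0, and the dashed line marks an equal difference at both stages. Phlda3 moved from 2.48 to -3.53, whereas the open circles (Rhox5, Trap1a, Mfap2 and both reporters) stayed far from 0 at both stages.

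Among the 99 genes, 53 had an origin difference that was called at E13.5 and not at E9.5 (41 with a change above 0 and 12 below 0), and 17 had one that was called at E9.5 and not at E13.5. In 4 genes the difference was called at both stages with opposite signs. Phlda3 and Cox6b2 went from higher to lower in ex cells, and Fabp1 and Snhg11 went from lower to higher. The other 25 were called at neither stage, where a log2 difference above 1 was also required. The change had the same sign along the hindgut to colon and the midgut to small intestine axis in 97 of the 99. Since the change is the mean of the changes along these axes, calling genes by it favours equal signs, and the count is not independent evidence.

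Each change is the stage change of the ex cells minus that of the em cells, and the genes differed in which of these moved. Of the 60 genes with a change above 0, 32 had a called stage change in the embryonic cells alone, 13 in the extraembryonic cells alone, 9 in both and 6 in neither. Cdx4 belongs to the first kind, Mt2 to the second and Tmem59l to those in both. Of the 39 with a change below 0, 8 moved in the embryonic cells alone, 8 in the extraembryonic cells alone, 6 in both and 17 in neither. Over all genes the stage change was called for 3042 genes in the em cells (21.7%), 466 higher (3.32%) and 2576 lower (18.4%) at E13.5. In the ex cells it was called for 2385 genes (17%), 561 higher (4%) and 1824 lower (13%). Quantile normalization gave 962 higher and 944 lower in the em cells and 943 higher and 962 lower in the ex cells. In the ex cells the split was 691 against 1420 under median-ratio rescaling and 627 against 1217 with FPKM values. In the em cells the split was 689 against 1657 under median-ratio rescaling and 550 against 1515 with FPKM values. The size of the excess of falls thus depended on the scaling. It was nearly absent only under quantile normalization, which gives all libraries the same distribution and so favours an even split.

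**Figure D2:**
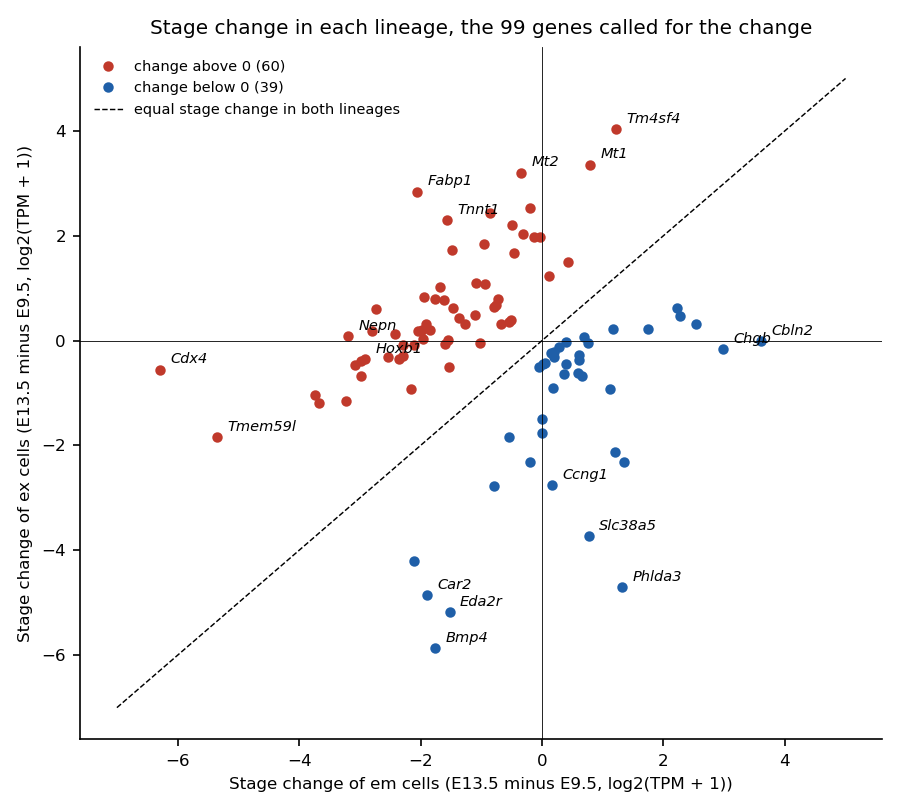
Stage change (E13.5 minus E9.5, log2(TPM + 1)) of the em cells on the horizontal axis and of the ex cells on the vertical axis for the 99 genes called. Points above the dashed line have a change above 0 (red, 60 genes) and points below it a change below 0 (blue, 39 genes). Cdx4 and Tmem59l lie far left, with the largest falls in the em cells, and Bmp4, Eda2r, Car2 and Phlda3 lie lowest, with the largest falls in the ex cells.

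Most genes called between the origins at E9.5 had a difference of the same sign at E13.5, and the medians were nearer to 0 there. Of 173 genes that were higher in ex cells at E9.5 (1.23% of genes tested), 147 (85.0%) were also above 0 at E13.5 and 76 (43.9%) were called in the same direction, while their median difference went from 1.65 to 1.00. Of 189 genes that were lower in ex cells at E9.5 (1.35%), 148 (78.3%) were also below 0 and 38 (20.1%) were called, with medians of -1.55 and -0.49. In each set 2 genes were called in the opposite direction. Together the 362 genes were 2.58% of those tested. At E13.5, 652 genes (4.64%) were called, 467 higher (3.33%) and 185 lower (1.32%) in ex cells, and the split was 259 against 212 under quantile normalization. The median within-group SD was wider in each E13.5 group than in each E9.5 group. The fit used the same spread at both stages, and the part of this in the counts was not tested. Of the 467, 76 were among the 173. The first sets were selected by the E9.5 value, and a selection at E13.5 likewise gave medians nearer to 0 at the other stage. Of the 467, 357 (76.4%) were above 0 at E9.5, with medians of 1.66 at E13.5 and 0.30 at E9.5. Of the 185, 151 (81.6%) were below 0 at E9.5, with medians of -1.64 and -0.52.

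Genes that mark the extraembryonic origin belonged to those without a called change. Rhox5, an X-linked homeobox gene, was at 740.1, 877 and 1261 TPM (lowest, median and highest) in the 8 ex libraries at E9.5 and at 793, 1081 and 1548 TPM in the 6 at E13.5. Its median was 2.60 TPM in the em libraries at E9.5, and all 6 em libraries were at 0 at E13.5. The change of Rhox5 was 2.15 ± 0.67 (SE; limma adjusted p = 0.15). Changes were likewise not called for Trap1a (0.91 ± 0.47), Tex19.1 (0.90 ± 0.71), Cdkn2a (1.09 ± 0.74) and Xlr3a (-0.10 ± 0.62), all of which were higher in ex cells at both stages. Xlr3a has near-identical copies on the X chromosome among which reads can be split. Mfap2, a gene for a microfibril protein, stayed lower in ex cells, with differences of -6.22 and -5.25. Mmp2, a gene for a matrix metalloproteinase, was lower in ex cells at E9.5 by a difference of -3.52, and at E13.5 it was listed at 0 in all 6 ex and in 4 of 6 em libraries.

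The Trp53 targets held several of the largest falls of the origin difference. Phlda3 (chr1:135766119-135769136, plus strand, mm10), whose product restrains Akt signalling, was at 7.47, 18.5 and 28.1 TPM (lowest, median and highest) in em and at 55.3, 87.3 and 243 TPM in ex libraries at E9.5. At E13.5 it was at 26.8, 43.9 and 67.1 TPM in em libraries and at 0, 4.88 and 20.8 TPM in ex libraries, of which 3 were at 0. The groups did not overlap at either stage and their order was inverted. The change was -6.01 ± 0.72 (SE; limma adjusted p = 4e-05), made of a fall by 4.69 in the ex cells and a rise of 1.32 in the em cells.

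Ccng1 (chr11:40748552-40755311, minus strand), which encodes cyclin G1, was at 63.0, 125 and 158 TPM in ex libraries at E9.5, all above the em libraries at 14.6, 22.1 and 33.4 TPM. At E13.5 it was at 12.2, 13.9 and 11.9 TPM in exSI and at 31.2, 23.2 and 9.95 TPM in exColon, against 16.8, 21.8 and 46.0 TPM (lowest, median and highest) in the 6 em libraries, and the groups overlapped. Its change was -2.91 ± 0.36 (limma adjusted p = 4.9e-05), with a fall by 2.75 in the ex cells and a stage change of 0.16 in the em cells. Phlda3 and Ccng1 are 2 of 4 Trp53 targets that the study drew from its E9.5 samples, so that a high E9.5 value in them is not independent evidence. The change subtracts the E9.5 difference, so a change below 0 was favoured in these targets in advance. The other members, Trp53inp1 and Perp, had changes of -0.60 ± 0.39 and -0.70 ± 0.65, which were not called. Trp53inp1 was higher in ex cells at E13.5 by 1.14 over both organs (limma adjusted p = 0.019). In the small intestine its ex libraries at 33.1 to 38.1 TPM lay above the em libraries at 2.79 to 19.9 TPM, whereas in the colon the ex libraries at 8.43 to 12.4 TPM lay within the em range, whose highest value was 15.4 TPM.

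Among 31 further Trp53 targets tested, 4 fell and 1 rose relative to the em cells, against 0.278% and 0.427% of all genes. The median change was -0.49, against 0.14 over all genes, and 24 of the 31 were below 0, against 5607 of all 14038 genes. Along the midgut to small intestine axis 26 of the 31 were below 0, and along the hindgut to colon axis 17. Of all genes, 6781 and 5322 were below 0 along these axes. The median origin difference of the 31 was 0.56 at E9.5, where 28 were above 0 and 8 were called higher. At E13.5 it was 0.18, and 3 were called higher and 1 lower. Among all 14038 genes, 6607 were above 0 and 1.23% were called higher at E9.5. The shares of all genes called at E13.5 were 3.33% higher and 1.32% lower. With median-ratio rescaling the median change of the 31 was -0.61 and with quantile normalization -0.64. With emSI replicates 1 and 2 left out, 2 of the 31 were called, both below 0.

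**Figure D3:**
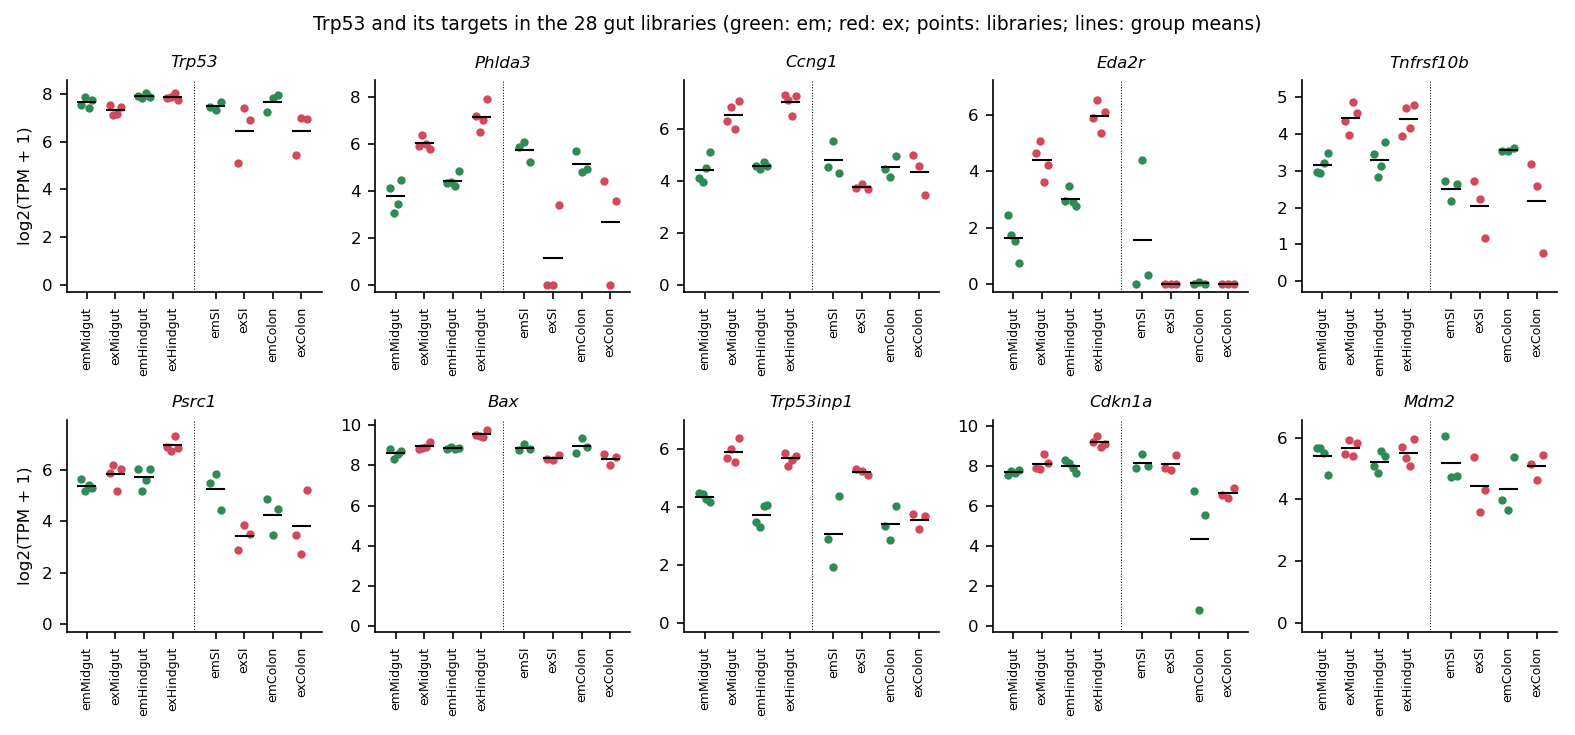
TPM on a log2(TPM + 1) axis in the 28 libraries for Trp53 and 9 of its targets, grouped by region and stage. Green points are em and red points ex libraries, black lines are group means, and the dotted line divides E9.5 from E13.5. The ex libraries lie above the em libraries at E9.5 and not at E13.5 for Phlda3, Ccng1 and Eda2r, whereas Mdm2 overlaps at both stages.

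Receptors of the tumour necrosis factor family were among the 4. Eda2r (chrX:97333840-97377216, minus strand) was at 11.3, 36.4 and 91.1 TPM in ex and at 0.667, 5.15 and 10.1 TPM in em libraries at E9.5, and was listed at 0 in all 6 ex libraries at E13.5. In the em libraries at E13.5 it was at or below 0.252 TPM except in emSI replicate 2, with 20.3 TPM. The change was -3.66 ± 0.67 (limma adjusted p = 0.0062), and for this and other genes listed at 0 in all libraries of an arm the size depends on the pseudocount. Tnfrsf10b, a death receptor gene, was higher in all ex than in all em libraries at E9.5 (14.3 to 28.1 against 6.11 to 12.7 TPM), and at E13.5 its medians were 4.38 TPM in ex and 8.07 TPM in em libraries. Its change of -2.12 ± 0.47 (limma adjusted p = 0.025) was at an adjusted p of 0.054 without exSI replicate 3.

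Bax (chr7:45461697-45466898, minus strand), the pore-forming effector of mitochondrial apoptosis, showed a small change with little spread. It was at 451, 625 and 878 TPM in ex and at 314, 449 and 480 TPM in em libraries at E9.5, and at 257, 325 and 373 against 393, 460 and 653 TPM at E13.5. The E13.5 groups did not overlap. The change was -1.10 ± 0.15 (limma adjusted p = 0.00018). Psrc1, which encodes a spindle-associated protein, changed by -1.98 ± 0.43 (limma adjusted p = 0.021), from medians of 88.5 TPM in ex and 44.5 TPM in em libraries to 10.2 and 24.4 TPM, with overlap at both stages. Xpc, which encodes a sensor of DNA damage, moved the other way by 1.59 ± 0.38 (limma adjusted p = 0.039), and its call held in 11 of the 28 fits that each left out 1 library, with an adjusted p of at most 0.069 in the others.

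Cdkn1a and Mdm2, the textbook targets for arrest and for feedback, did not show a called change. Cdkn1a was at 225, 434 and 701 TPM in ex and at 181, 219 and 312 TPM in em libraries at E9.5, and at 83.9, 168 and 368 against 0.749, 171 and 376 TPM at E13.5. Its change was 0.28 ± 0.68, with a 95% interval from -1.11 to 1.68, and emColon ranged from 0.749 to 106 TPM. Mdm2 changed by -0.29 ± 0.41, with an interval from -1.13 to 0.55. Fas, another death receptor gene, changed by -2.20 ± 0.65 (limma adjusted p = 0.11), and was named here after its value was seen. Likewise named after their values were seen are Rps27l, a ribosomal protein paralogue (-0.87 ± 0.14, limma adjusted p = 0.0022), and Bloc1s2, a subunit of a complex in lysosome-related organelle biogenesis (-1.21 ± 0.22, limma adjusted p = 0.0062).

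Promoters of these genes were read because the members that moved together share a regulator by textbook knowledge. The 250 bases before the RefSeq start on GRCm38.p6 were searched on both strands for the p53 half-site. This decamer is only a part of a p53 binding site. A match stood in 7.13% of 32851 RefSeq promoters of that length. Of the 13 genes looked up, 9 had an entry, with 12 promoters, of which 5 held a match, in 5 genes. Most of the 13 were on the lists of Trp53 targets, so their share is not independent evidence. Matches are in capitals below, at 185 bases before the start in Ccng1 (chr11:40755287-40755536, minus strand), at 201 in Bax (chr7:45466899-45467148, minus strand), at 186 in Mdm2 (chr10:117710759-117711008, minus strand), and at 73 and 51 in the first promoter of Cdkn1a (chr17:29090729-29090978, plus strand). They are shown because Ccng1 and Bax had a called change and Mdm2 and Cdkn1a did not, while all 4 hold a match.
Ccng1: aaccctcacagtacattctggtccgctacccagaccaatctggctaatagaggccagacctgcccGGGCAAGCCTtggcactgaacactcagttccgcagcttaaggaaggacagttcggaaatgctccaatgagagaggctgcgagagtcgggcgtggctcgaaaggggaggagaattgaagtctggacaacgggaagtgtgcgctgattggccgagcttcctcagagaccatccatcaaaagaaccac
Bax: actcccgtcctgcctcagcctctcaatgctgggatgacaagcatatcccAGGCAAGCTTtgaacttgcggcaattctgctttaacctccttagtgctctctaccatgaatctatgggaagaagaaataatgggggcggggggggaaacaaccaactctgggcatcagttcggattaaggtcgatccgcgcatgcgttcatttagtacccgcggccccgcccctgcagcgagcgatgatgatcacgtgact
Mdm2: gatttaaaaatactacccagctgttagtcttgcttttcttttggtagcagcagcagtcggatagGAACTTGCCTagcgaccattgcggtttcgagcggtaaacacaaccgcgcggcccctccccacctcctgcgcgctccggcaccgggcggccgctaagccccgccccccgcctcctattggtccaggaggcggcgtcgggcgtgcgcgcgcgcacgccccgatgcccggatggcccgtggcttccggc
Cdkn1a: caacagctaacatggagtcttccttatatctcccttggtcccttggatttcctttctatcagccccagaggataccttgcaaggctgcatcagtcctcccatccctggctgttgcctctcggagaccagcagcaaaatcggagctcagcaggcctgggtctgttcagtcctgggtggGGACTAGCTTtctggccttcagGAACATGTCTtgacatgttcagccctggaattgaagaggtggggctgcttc
The fifth gene with a match was Rps27l. None was found in this window of Phlda3, Eda2r, Psrc1 or Bloc1s2, nor in the second promoter of Cdkn1a or the first of Rps27l. A match of these letters is a description of the sequence and was present in genes with and without a called change.

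The largest rise of the origin difference was that of Cdx4, a homeobox gene of the posterior body axis. Cdx4 (chrX:103321398-103330592, plus strand) was at 451, 509, 437 and 526 TPM in emHindgut and at 42.6, 34.4, 3.57 and 2.83 TPM in emMidgut. Of the 8 ex libraries at E9.5, 5 were at 0 and the highest was exHindgut replicate 1 with 16.2 TPM. All 12 libraries at E13.5 were at 0. The change was 5.74 ± 0.77 (limma adjusted p = 0.00012) and consists of a fall by 6.29 in the em cells.

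Hoxb1 (chr11:96365752-96368256, plus strand), a 3′ gene of its Hox cluster, was likewise high in emHindgut and then at 0. It was at 65.5, 54.5, 54.8 and 45.3 TPM in emHindgut, at most 0.122 TPM in emMidgut and at most 2.05 TPM in ex libraries, and at 0 in all E13.5 libraries. Its change was 2.56 ± 0.36 (limma adjusted p = 0.00018). It was the 1 gene called among 38 Hox genes tested, whose median change was 0.10, and whose median stage change was -2.51 in the ex and -2.57 in the em cells. At E9.5 3 of the 38 were called lower in ex cells, and none was called at E13.5. The share of all genes called lower at E9.5 was 1.35%, and that called in either direction at E13.5 was 4.64%.

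**Figure D4:**
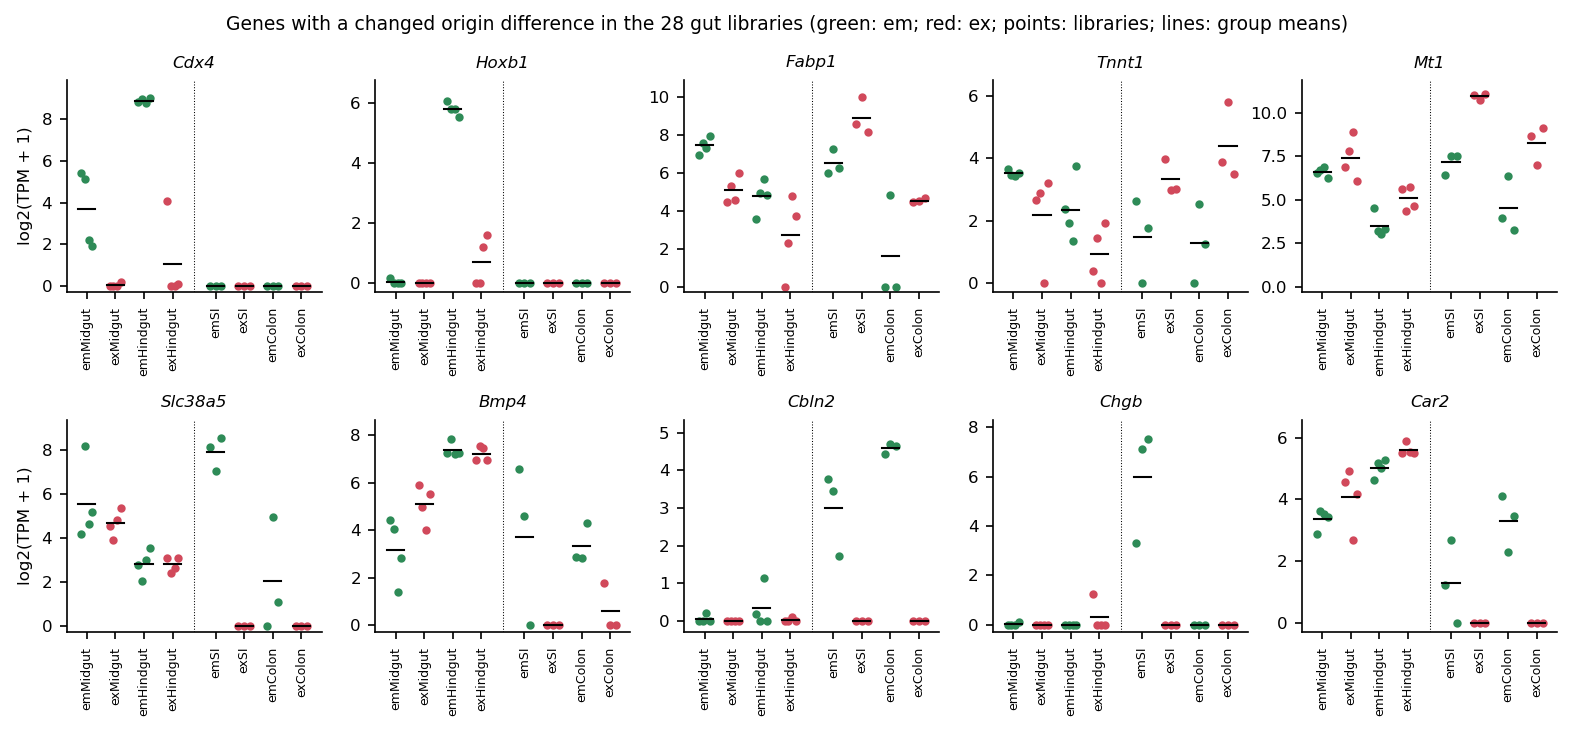
TPM on a log2(TPM + 1) axis in the 28 libraries for 5 genes with a change above 0 (upper row) and 5 with a change below 0 (lower row). Green points are em and red points ex libraries, black lines are group means, and the dotted line divides E9.5 from E13.5. Cdx4 and Hoxb1 are highest in emHindgut libraries of E9.5, and Fabp1 and Mt1 are highest in exSI libraries of E13.5. Slc38a5, Cbln2, Chgb and Car2 are at 0 in all ex libraries of E13.5.

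Of 28 genes of enterocyte and secretory differentiation tested, 2 were called with a change above 0 and 1 with a change below 0, and the median change was 0.11, against 0.14 over all genes. Fabp1 (chr6:71199827-71205023, plus strand), the fatty acid binding protein of enterocytes, was at 122, 192, 161 and 249 TPM in emMidgut and at 21.1, 38.4, 23.2 and 62.2 TPM in exMidgut. In the small intestine at E13.5 the order was inverted, with 62.3, 156 and 77.3 TPM in emSI and 385, 1033 and 289 TPM in exSI. In the colon it was at 0, 27.3 and 0 TPM in em and at 20.9, 21.7 and 24.4 TPM in ex libraries. The change was 4.89 ± 0.89 (limma adjusted p = 0.0062), with a rise of 2.84 in the ex and a fall by 2.05 in the em cells.

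Tm4sf4, a tetraspanin-like gene of the epithelium, had ranges of 0 to 27.2 TPM in em and 0 to 54.7 TPM in ex libraries at E9.5. At E13.5 these were 0 to 92.3 TPM and 43.4 to 266 TPM. Its change of 2.82 ± 0.68 (limma adjusted p = 0.043) was called in 8 of 28 fits that left out 1 library, with an adjusted p of at most 0.077 in the rest. Fabp1 and Tm4sf4 were the 2 members called above 0.

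The third member called was Chgb (chr2:132781278-132795079, plus strand), which encodes chromogranin B of endocrine secretory granules. It was at 8.89, 138 and 184 TPM in emSI and at 0 in all libraries of exSI, exColon and emColon. At E9.5 the highest value was 1.39 TPM, in exHindgut replicate 1. Its change was -3.14 ± 0.57 (limma adjusted p = 0.0062). Pax6, a homeobox gene of endocrine cells that was named after its values were seen, was at 8.80, 8.74 and 15.3 TPM in emSI and at 1.74, 0 and 0.0912 TPM in exSI, with a change of -1.52 ± 0.32 (limma adjusted p = 0.018). Ddc, an enzyme of monoamine synthesis named in the same way, changed by -1.60 ± 0.36 (limma adjusted p = 0.025), with em cells going from a median of 17.3 to 88.0 TPM and ex cells having medians of 70.0 and 95.0 TPM.

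Among transcription factors of the endoderm, 1 of 29 tested was called. Barx1, known from the stomach region, was at 0 in all em libraries and in all E13.5 libraries, and reached 3.17 TPM in ex libraries of E9.5, of which 7 of 8 were above 0. Its change was -1.50 ± 0.33 (limma adjusted p = 0.025). Onecut1, which was not in that list and was named after its value was seen, was at 4.34, 3.59 and 7.38 TPM in emSI, at 0.865, 0.332 and 1.73 TPM in emColon, at 17.4, 6.98 and 15.4 TPM in exSI and at 17.9, 20.7 and 22.8 TPM in exColon. It was at 0 in all 8 hindgut libraries of E9.5. Its change of 2.02 ± 0.47 (limma adjusted p = 0.037) was called in 9 of 28 fits that left out 1 library, with an adjusted p of at most 0.070 in the rest.

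Nepn, a gene for a small leucine-rich protein that marks the midgut, was higher in exColon than in emColon libraries at E13.5. It lay between 1037 and 2361 TPM in all 8 midgut libraries of either origin and at or below 14.7 TPM in all 8 hindgut libraries. At E13.5 it was at 18.7, 34.9 and 40.9 TPM in exColon and at 0, 0 and 1.29 TPM in emColon, whereas emSI (68.6, 151 and 95.0 TPM) and exSI (80.7, 151 and 247 TPM) overlapped. The change was 3.28 ± 0.70 (limma adjusted p = 0.019), and it had an adjusted p of 0.0019 along the hindgut to colon axis and of 0.95, with a change of 0.56, along the other. It was not called with emSI replicates 1 and 2 left out, without a filter on low values or with a pseudocount of 0.1.

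Both metallothionein genes, which encode metal-binding proteins induced by zinc and by stress, rose in ex cells. Mt1 (chr8:94179082-94180327, plus strand) was at 2090.2, 1665 and 2135 TPM in exSI and at 401, 129 and 563 TPM in exColon, against 86.4, 185 and 179 TPM in emSI and 14.6, 80.2 and 8.65 TPM in emColon. At E9.5 the medians were 59.7 TPM in ex and 49.0 TPM in em libraries, and the ranges overlapped. Mt2 (chr8:94172664-94173568, plus strand) lies 5513 bases from Mt1 and had E13.5 medians of 543 TPM in ex and 34.5 TPM in em libraries. The changes were 3.55 ± 0.76 (limma adjusted p = 0.019) for Mt2 and 2.57 ± 0.59 (limma adjusted p = 0.033) for Mt1. Mt1 was named after its value was seen, and was called in 18 of 28 fits that left out 1 library, with an adjusted p of at most 0.070 in the rest.

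Genes of cholesterol synthesis and uptake had a median origin difference below 0 at E9.5 and near 0 at E13.5. Of 24 tested, 7 were called lower in ex cells at E9.5 and the median origin difference was -0.78, and at E13.5 the median was 0.00 with 1 called, which was higher. The share of all genes called lower at E9.5 was 1.35%, and that called higher at E13.5 was 3.33%. The change was above 0 in 23 of 24 with a median of 0.53, and 3 were called. Over all 14038 genes tested, it was above 0 in 8431 and called above 0 in 60 (0.427%). Hmgcs1, an early enzyme of the pathway, was at 59.1, 83.0 and 144 TPM in ex and at 120, 176 and 255 TPM in em libraries at E9.5, and at 120, 195 and 298 against 110, 200 and 248 TPM at E13.5. Its change was 1.12 ± 0.25 (limma adjusted p = 0.027), Msmo1 changed by 1.08 ± 0.26 (limma adjusted p = 0.039) and Tm7sf2 by 2.11 ± 0.44 (limma adjusted p = 0.018). The median stage change of the list was 1.07 in ex and 0.28 in em cells. Tm7sf2 was called with each single library left out, Hmgcs1 in 24 of 28 such fits and Msmo1 in 12, with adjusted p-values of at most 0.056 and 0.070 in the rest. Median-ratio rescaling left 1 of the 24 called, with a median change of 0.41.

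Other genes with a large rise came from mixed families. Tmem59l, a gene for a membrane glycoprotein, was at 0 in all 6 em libraries at E13.5 and above 0 in 5 of 6 ex libraries, after medians of 39.3 TPM in em and 16.9 TPM in ex libraries at E9.5 (3.50 ± 0.68, limma adjusted p = 0.010). Thbs3, a thrombospondin gene, was at 3.25 to 13.1 TPM in ex and at most 1.97 TPM in em libraries at E13.5 (2.97 ± 0.56, limma adjusted p = 0.0087). Tnnt1, for slow troponin T (3.87 ± 0.77), Fxyd2, for a regulator of the sodium pump (3.29 ± 0.65), Calr3, a calreticulin of the testis (3.20 ± 0.69), and Fstl4, for a follistatin-like protein (3.34 ± 0.74), had adjusted p-values of 0.013, 0.012, 0.019 and 0.022 in limma. Calr3 lay between 4.00 and 19.7 TPM in ex libraries at E13.5 and did not exceed 0.629 TPM in em libraries. Snhg11, a host gene of small nucleolar RNA, reversed from a difference of -1.04 at E9.5 to 1.58 at E13.5.

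Genes for transporters, enzymes and secreted proteins were among the largest falls outside the Trp53 targets. Slc38a5 (chrX:8271133-8280179, plus strand), a glutamine transporter gene, was at 282, 131 and 378 TPM in emSI and at 0, 30.5 and 1.08 TPM in emColon, and at 0 in all 6 ex libraries of E13.5. At E9.5 the medians were 13.9 TPM in em and 10.8 TPM in ex libraries, with 1 high library, emMidgut replicate 2, at 294 TPM. The change was -4.50 ± 0.82 (limma adjusted p = 0.0062). Cbln2, a gene for a secreted synapse organiser, was near 0 in all E9.5 libraries, at 12.8, 10.0 and 2.31 TPM in emSI and 20.7, 25.1 and 24.0 TPM in emColon, and at 0 in all 6 ex libraries of E13.5 (-3.62 ± 0.39, limma adjusted p = 8.7e-06). Car2, a carbonic anhydrase gene, was at 5.36 to 58.2 TPM in all E9.5 libraries, at 0 to 16.3 TPM in em libraries of E13.5 and at 0 in the 6 ex libraries (-2.95 ± 0.54, limma adjusted p = 0.0062).

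Cox6b2, a testis-type subunit of cytochrome c oxidase, also reversed in order. It was at 54.6, 97.3 and 246 TPM in ex and at 8.48, 33.7 and 47.1 TPM in em libraries at E9.5, without overlap. At E13.5 it was at 1.69, 30.2 and 62.6 TPM in ex and at 47.5, 52.4 and 104 TPM in em libraries. The change was -3.66 ± 0.63 (limma adjusted p = 0.0041).

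Bmp4 (chr14:46383520-46390669, minus strand), a signal that the gut mesenchyme and the posterior endoderm make, was the 1 gene called among 39 of the Wnt, Hedgehog, Notch and BMP pathways. At E9.5 it was at 151, 230, 147 and 150 TPM in emHindgut and at 122, 187, 173 and 124 TPM in exHindgut, and lower in the midgut of either origin. At E13.5 it was at 92.8, 22.8 and 0 TPM in emSI, at 6.29, 6.11 and 18.7 TPM in emColon, and at 0 in 5 of 6 ex libraries. The change was -4.10 ± 0.89 (limma adjusted p = 0.020). Col1a1, a mesenchymal collagen gene, reached 56.8 TPM in emSI replicate 1, and the mesenchyme markers summed to 1.75 to 977 TPM in em and 0.0204 to 391 TPM in ex libraries at E13.5, while Col1a1 was at 0 in all 6 ex libraries. With emSI replicates 1 and 2 left out the change of Bmp4 was -2.25 and its call was lost, and the part of mesenchyme in the result was not tested. In bulk samples fewer cells of a type and less RNA per cell cannot be told apart. Lama2 and Sparc, genes of the basement membrane and matrix named after their values were seen, changed by -2.22 ± 0.48 (limma adjusted p = 0.021) and by -1.30 ± 0.31 (limma adjusted p = 0.040), the latter called in 11 of 28 fits that left out 1 library, with an adjusted p of at most 0.082 in the rest.

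Germline genes, many of which are silenced by DNA methylation in somatic cells, were often higher in ex cells at both stages. Of 33 tested, 19 were called higher in ex cells at E9.5 and 18 at E13.5, the median differences were 2.22 and 1.79, and none had a called change. Among all 14038 genes, 173 (1.23%) and 467 (3.33%) were called higher at these stages. The list includes genes that the study named from those higher in ex cells in its E9.5 samples. Among these are Rhox5, Trap1a, Mageb16, Tekt5, Tex101, Xlr3c and Slc25a31, in which a high E9.5 value is not independent evidence. Rnf17 and Pld6, germline genes outside that list that were named after their values were seen, rose relative to em cells. Rnf17, of the piRNA pathway, was at 4.52 to 25.8 TPM in ex and at most 1.14 TPM in em libraries at E13.5, against 3.56 to 14.9 and 2.03 to 5.71 TPM at E9.5, a change of 2.54 ± 0.49 (limma adjusted p = 0.010). Pld6 changed by 2.71 ± 0.47 (limma adjusted p = 0.0041), with 30.0, 21.8 and 26.7 TPM in exColon and 0.281, 0.201 and 0 TPM in emColon. Dppa3, a marker of germ cells themselves, was high in emMidgut replicates 1 and 3, up to 224 TPM, and at most 0.462 TPM in the ex libraries. Without those 2 libraries the change was called for 72 genes, of which 67 were among the 99.

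Visceral endoderm and yolk sac genes were also often higher in ex cells, without a called change. Of 30 tested, 15 were called higher at E9.5 and 8 at E13.5, and their median origin difference went from 1.36 to 0.78. The share of all genes called higher was 1.23% at E9.5 and 3.33% at E13.5. The stage change of the 30 had a median of 0.24 in ex and of 0.96 in em cells, against -0.28 and -0.44 over all genes. All 30 genes of proliferation and DNA replication were below 0 at E9.5, with a median of -0.48. At E13.5 22 of the 30 were below 0, with a median of -0.21, and none had a called change. Over all 14038 genes tested, 7419 were below 0 at E9.5 and 5914 at E13.5.

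Cytosolic ribosomal protein genes, a list added after the values were seen, had small changes that were mostly below 0. Of 77 tested, 9 were called, all below 0, and 74 had a change below 0, with a median of -0.30. Over all 14038 genes tested, 39 (0.278%) were called below 0 and 5607 had a change below 0. The median origin difference of the 77 was 0.09 at E9.5 and -0.24 at E13.5. Rps19 had the largest called change, -0.61 ± 0.08 (limma adjusted p = 5.4e-05), from medians of 3538 TPM in em and 4175 TPM in ex libraries at E9.5 to 5591 and 4524 TPM at E13.5. The median change was -0.42 under median-ratio rescaling and -0.22 under quantile normalization, with 12 and 6 genes called. Leaving out 1 library at a time gave 6 to 18 genes called, the highest number without exColon replicate 1. Rpl37, Rpl7a and Rpl37a were called in 27, 21 and 16 of the 28 fits that each left out 1 library, with adjusted p-values of at most 0.052, 0.060 and 0.074 in the rest. With no mean-variance trend in limma none of the 77 was called, while the median change was not altered by that setting.

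**Figure D5:**
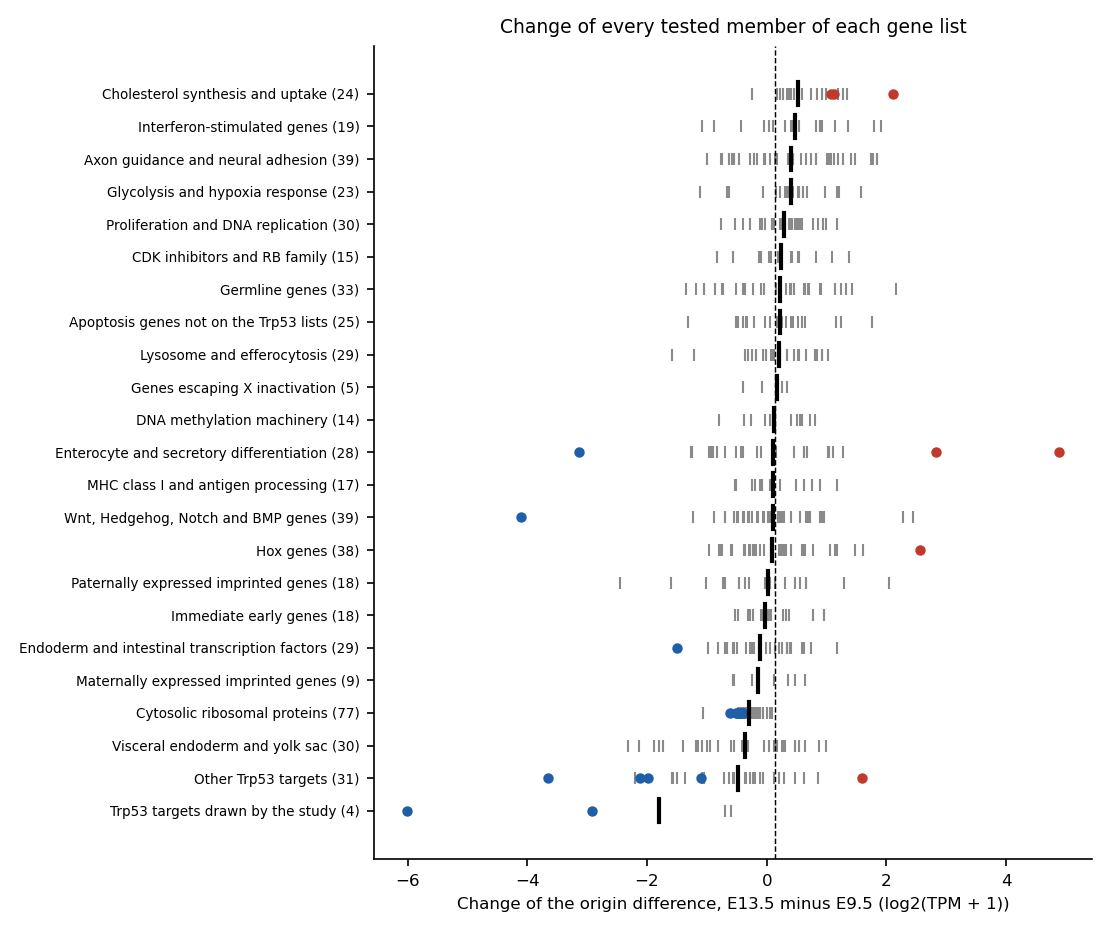
Change of the origin difference (log2(TPM + 1)) of each tested member of each gene list, lists ordered by their median (cell type marker lists are not drawn). Grey ticks are members not called, red and blue points members called above and below 0, thick bars list medians and the dashed line the median of all 14038 genes (0.14). The Trp53 targets lie furthest left, with medians of -1.81 and -0.49, and the cholesterol genes furthest right, with 0.53. The list at -1.81 holds the 4 targets that the study drew from its E9.5 samples, so a change below 0 was favoured there.

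Most other lists held no called change. There was none among 25 apoptosis genes outside the Trp53 lists (median 0.21), 15 CDK inhibitors and RB family genes (0.24), 39 genes of axon guidance and neural adhesion (0.41), 23 of glycolysis and the hypoxia response (0.41), 19 interferon-stimulated genes (0.47), 17 of MHC class I and antigen processing (0.10), 29 of lysosome and efferocytosis (0.20), and 14 of the DNA methylation machinery (0.11). None was called among 9 maternally and 18 paternally expressed imprinted genes (-0.15 and 0.02), 18 immediate early genes (-0.03) or 5 genes that escape X inactivation (0.18). Of the 99 genes, 4 are X-linked (Cdx4, Slc38a5, Eda2r and Fndc3c1), a share of 4.04% beside 3.76% of all genes tested.

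The change was then taken along each gut axis. From hindgut to colon it was called for 213 genes (1.52%), 149 above (1.06%) and 64 below 0 (0.456%). From midgut to small intestine it was called for 19 (0.135%), 8 above (0.057%) and 11 below 0 (0.0784%). Both axes had a median standard error of 0.69, since the fit used the same spread of a gene in all groups. The median within-group SD was 0.643 in emColon and 0.600 in exColon, against 0.481 in emSI and 0.513 in exSI. At E9.5 it was 0.307 and 0.356 in emHindgut and exHindgut, against 0.359 and 0.413 in emMidgut and exMidgut. The part of unequal spread in these counts was not tested. The split along the first axis was 104 against 108 under median-ratio rescaling and 63 against 71 under quantile normalization. Of the 213, 127 (59.6%) had the same sign along the other axis, and 4 genes were called along both, each with the same sign. Ccng1 changed by -2.65 and -3.18, Phlda3 by -5.18 and -6.84 and Cbln2 by -4.30 and -2.93 along the hindgut and the midgut axis, each called in limma.

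A difference between the axes was called for 33 genes (0.235%), 23 higher (0.164%) and 10 lower (0.0712%) along the hindgut to colon axis. Id3, a target of BMP signalling, was at 0 in all 3 emColon libraries and at 226, 274 and 8.89 TPM in exColon, against 281, 144 and 112 TPM in emSI and 192, 160 and 78.4 TPM in exSI. Its axis difference was 7.15 (limma adjusted p = 0.015). Meis2, a homeobox gene, was at most 0.855 TPM in emColon and at 22.5, 9.80 and 15.4 TPM in exColon, with an axis difference of 6.72 (limma adjusted p = 0.0088). Hoxb1 had an axis difference of 5.04 (limma adjusted p = 0.0014), and both Id3 and Meis2 were named after their values were seen. The count of 33 was not stable, since leaving out 1 library gave 4 (without exSI replicate 2) to 76 (without exColon replicate 3).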

How the data were processed

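RNA was sequenced from low-input libraries of sorted gut cells, 28 of which enter here. Per the submitters' processing notes and the study's methods, cutadapt 4.1 was used for trimming and STAR 2.7.9a for alignment to mm10 with both reporter sequences added, and StringTie 2.0.6 estimated gene abundance on a GENCODE annotation. The deposited files give, for each library and gene identifier, TPM, FPKM and mean read coverage as estimated by the authors, without pooling and without counts. TPM values sum to the same total in each library, so a change is relative to the other genes of that library. Coverage as deposited was used only to estimate aligned bases, and FPKM as deposited only in an alternative. No count model was used, since these values are not counts.

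TPM was summed per gene identifier and log2(TPM + 1) was taken. Genes above 1 TPM in at least 4 of the 28 libraries that are protein coding in GENCODE vM21 (32235 of 32287 identifiers matched) and not on the Y chromosome were tested, 14038 in all with the reporters. A linear model on the means of the 8 groups was fitted with limma 3.58.1 in R 4.3.3, with a mean-variance trend, 20 residual degrees of freedom, two-sided tests and Benjamini-Hochberg adjustment over all genes tested. The spread of each gene was estimated jointly over the 8 groups, so groups of wider and of tighter replicates were given the same spread. Changes and their difference between axes were called at an adjusted p below 0.05, and origin and stage differences also required an absolute log2 difference above 1. Python 3.11.15 with pandas 2.3.3 and scipy 1.17.1 was used for summaries and matplotlib 3.10.9 for plots.

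Named genes are Trp53, the reporters and genes the study names; the 10 largest rises and falls among called genes with the same sign in both axes and a group mean of at least 5 TPM; up to 4 called members of each list and direction; Cdkn1a and Mdm2; and the 5 largest changes of each pattern of calls. A gene that this rule names is not reported here. Further genes and the ribosomal list were added after their values were seen and are marked so. The comparison, its members and the gene lists were chosen with earlier results of these data known. Alternatives were another pseudocount (0.1), no filter, FPKM, quantile and median-ratio scaling, all gene types, all 44 libraries, no region terms, no trend, a fold threshold, a replicate block and each library left out. Leaving out emSI replicates 1 and 2, which hold collagen transcripts, and leaving out emMidgut replicates 1 and 3, which hold transcripts of the germ cell gene Dppa3, were chosen after seeing the data. Promoters came from RefSeq on GRCm38.p6, where Tnfrsf10b, Trp53inp1, Perp and Xpc were not analysed.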

Additional observations from a re-analysis of the deposited data

Results flagged for a closer look

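Of 124 groups of 4 libraries tested over 32 named genes, 13 held a library set apart from the others, where chance sets apart about 1 in 20 groups. The reporters and markers of the other origin were among them. EGFP was at 2.30 TPM in exMidgut replicate 1 and at 2.38 TPM in exHindgut replicate 2, and mCherry at 5.29 TPM in emMidgut replicate 1. In the em libraries, Trap1a was at 9.53 TPM in emMidgut replicate 3, Xlr3a at 8.90 TPM in emMidgut replicate 1 and Tex19.1 at 2.07 TPM in emHindgut replicate 2, values below those of all ex libraries of E9.5.

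Among genes with a called change, Cdx4 reached 16.2 TPM in exHindgut replicate 1 alone of its group, where Chgb was also set apart at 1.39 TPM. In emHindgut, Bmp4 was high in replicate 2 (230.2 TPM), Cox6b2 in replicate 1 (46.4 TPM) and Cbln2 in replicate 3 (1.20 TPM). In exHindgut, Car2 was high in replicate 2 (58.2 TPM) and Thbs3 low in replicate 3 (1.73 TPM).

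Among the genes that the naming rule chose, Chgb differed between the gut axes, with a change along the hindgut to colon axis that was 5.65 above that along the midgut to small intestine axis (limma adjusted p = 0.037). Its changes were -0.31 and -5.96 along these axes, and its transcripts were found in the 3 emSI libraries at 8.89, 138 and 184 TPM. The call of the axis difference is among a set of 33 whose number fell to 4 without exSI replicate 2.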

How the results depend on the processing

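No called direction of a named gene was reversed under the alternatives run. Counts of called changes of 72 to 121 were obtained with FPKM, all gene types, no trend, no filter, a pseudocount of 0.1, both rescalings, a log2 threshold of 1 or the Dppa3 libraries left out. With all 44 libraries, which share 1 estimate of spread, there were 550, and with no region terms 14. With emSI replicates 1 and 2 left out there were 65, of which 42 were among the 99. Leaving out 1 library gave 75 to 203. Origin differences numbered 587 and 1208 at E9.5 and E13.5 with all 44 libraries and 221 and 308 with no region terms. Along the hindgut to colon axis there were 1034 with all 44 libraries, 137 without the Dppa3 libraries, 134 with quantile normalization and 106 to 490 with 1 library left out. Along the midgut to small intestine axis the same alternatives gave 191, 9, 35 and 13 to 74, and there were 42 without the emSI libraries, 34 without a filter and 10 with a pseudocount of 0.1. For the difference between axes they gave 427, 6, 16 and 4 to 76, and 20 without the emSI libraries. Stage changes in the em cells numbered 1906 with quantile normalization. The cause of these differences was not tested, also where fewer libraries entered.

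With the replicate block the change was called for 151 genes, 87 above and 64 below 0, including 95 of the 99, and it altered no other count by over 1.5 times among these comparisons. Deviations of same-numbered libraries correlated at -0.019 to 0.058 at E13.5 and at -0.016 to 0.067 at E9.5, none over 0.1, although 23 of 28 libraries correlated best with a library of their own number. The median correlation of same-numbered libraries was 0.024 at E13.5 and 0.016 at E9.5, against -0.011 and -0.009 for libraries of different numbers. The main fit did not take the numbers as pairs, and whether same-numbered libraries share embryos or a batch was not tested.

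Of 50 named genes with a called change, 38 were called with each single library left out, and 9 (Ccng1, Phlda3, Tmem59l, Thbs3, Cox6b2, Cbln2, Bax, Bloc1s2 and Rnf17) under each alternative as well. With no region terms 38 of the 50 were not called. The 3 libraries per group at E13.5, with 10382 to 12439 genes above 1 TPM, limit the precision, the median standard error of a change being 0.49 on the log2 scale.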
